A study of Mus musculus with 4 samples.

Results

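Genes of the lipid droplet were read in whole liver of mice on 4 Affymetrix arrays. The set was given as 10 gene symbols: the nuclear receptor gene Pparg, the CIDE genes Cidea, Cideb and Cidec, the perilipin genes Plin2, Plin4 and Plin5, the lipase gene Pnpla2, its inhibitor gene G0s2, and the droplet enzyme gene Hsd17b13. A probe set annotated with 1 of these symbols and no other was found for 9 of the 10, of 22180 genes with such a probe set in all. Cideb had none and is not described. Where a symbol had more than 1 probe set, the one with the highest mean over the 4 arrays was taken. A filter removed dim genes, those with a mean under the 40th percentile of gene means, which was 3.47 log2. It kept 13308 genes and 8 of the 9, and Cidea, with a mean of 3.46, lay just under it.

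The liver of C57Bl6 mice aged 16 weeks was compared over 2 genotypes and 2 diets. All mice carried floxed Myd88 (MyD88 lox/lox). This allele alone is called wild type here, and the same allele with ALB Cre, a recombinase driven by the albumin promoter of hepatocytes, is called knockout. Myd88 encodes an adaptor of Toll-like and interleukin-1 receptors. Cre under this promoter is aimed at hepatocytes, and its action in the liver's other cell types was not measured here. The control chow held 9.4% fat and the high-fat chow 60%, and mice of each genotype received one or the other. RNA of 4 to 5 mice per group, chosen for RNA quality, was pooled on 1 array, so each group has 1 value, no spread between mice was measured, and a difference between 2 arrays has no replicate and no p-value.

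Lipid droplets store triglyceride under a single layer of phospholipid. Perilipins coat that layer and control the access of lipases, and CIDE proteins join droplets into larger ones. Pnpla2 encodes adipose triglyceride lipase, which starts the breakdown of stored triglyceride, and G0s2 encodes a protein that inhibits it. In hepatocytes many of these genes respond to the fatty acid sensing receptors PPARalpha and PPARgamma, and fatty liver is known for raised PPARgamma and CIDE transcripts.

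In these arrays no droplet gene was 2-fold or more different between any 2 of the groups compared. Over all genes tested, 1.05% were 2-fold or more different between the diets in wild-type livers and 0.609% in knockout livers, and 0.503% between the genotypes on control diet and 0.391% on the high-fat diet. The genes with the widest range over the 4 arrays were Plin5 (0.83 log2), Pparg (0.61) and Plin2 (0.60). Plin5 and Plin2 were highest in wild-type livers on control diet. Pparg was high in wild-type livers on control diet and in knockout livers on the high-fat diet, and low in the other two groups. Cidec, Plin4, G0s2 and Hsd17b13 had ranges of 0.42 or less.

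**Figure D1:**
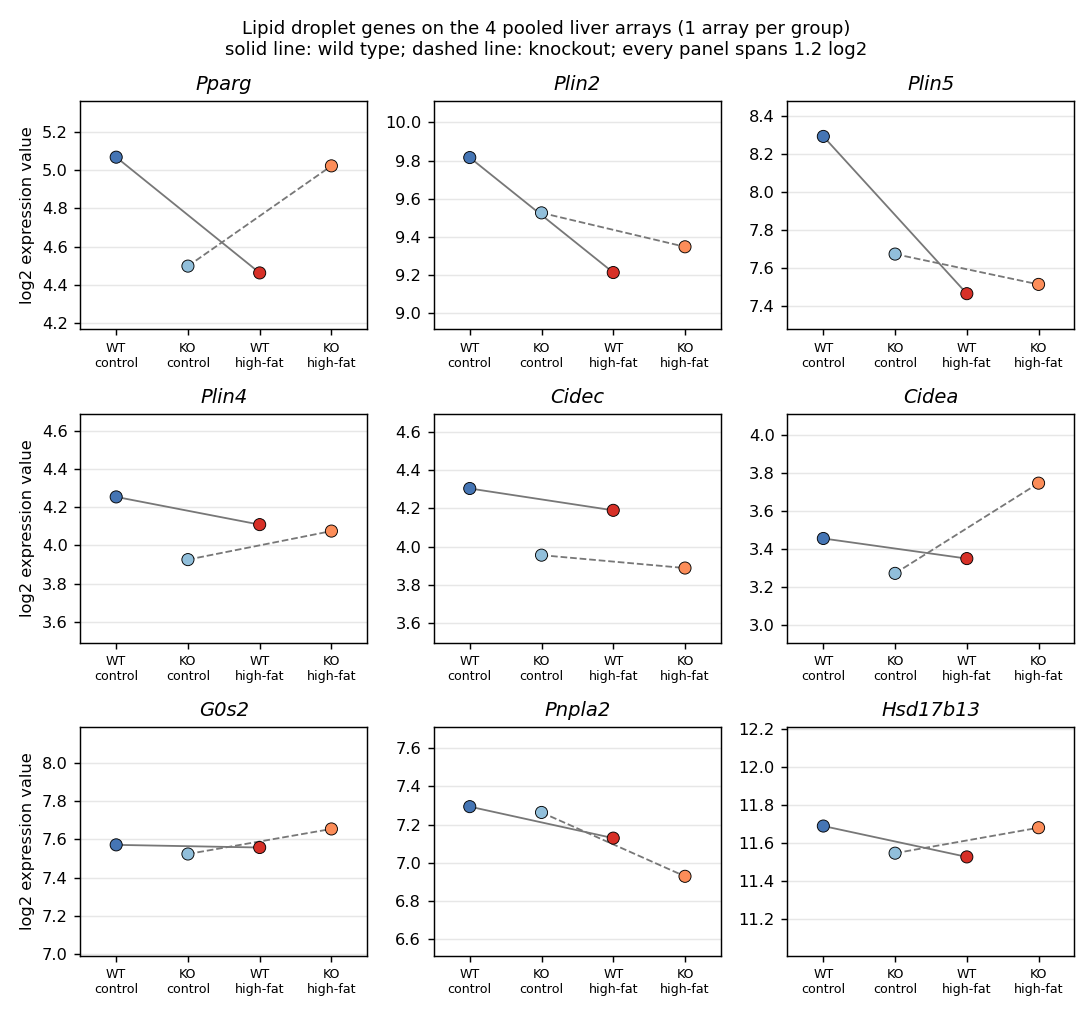
Log2 expression value (vertical axis) of each of the 9 genes in the 4 groups (horizontal axis); each point is 1 pooled array, solid lines join the wild-type arrays and dashed lines the knockout arrays, and every panel spans the same height. Plin5 and Plin2 are highest in wild-type livers on control diet, and the lines of Pparg cross, with 5.07 and 5.02 in the high groups and 4.50 and 4.46 in the low ones.

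Pparg (probe set 17461942) encodes the receptor that drives fat storage in adipocytes and is normally sparse in hepatocytes. Its log2 value was 5.07 in wild-type livers and 4.50 in knockout livers on control diet, and 4.46 in wild-type livers and 5.02 in knockout livers on the high-fat diet. The 2 high arrays lay within 0.05 of each other and so did the 2 low ones. On high-fat diet Pparg was thus lower than on control diet in wild-type livers, by a log2 difference of -0.61 (1.52-fold), and higher in knockout livers, by 0.53 (1.44-fold). The genotype difference was -0.57 on control diet and 0.56 on the high-fat diet. The diet difference in knockout livers minus that in wild-type livers was 1.13, a size that 0.736% of genes reached in either direction. Over all genes 1.22% reached 2-fold in this measure, and Pparg was the single one of the 8 tested droplet genes that did. It draws on all 4 arrays and leaves no replicate, so it has no test.

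Plin5 (probe set 17346136) encodes a perilipin of oxidative tissues that holds droplets close to mitochondria. Its log2 value was 8.29 in wild-type livers and 7.68 in knockout livers on control diet, and 7.47 in wild-type livers and 7.52 in knockout livers on the high-fat diet. The wild-type control array was the highest and the other 3 lay within 0.21 of each other. The difference with high-fat diet was -0.83 in wild-type livers, or 1.77-fold lower, which 1.65% of genes matched or exceeded, and -0.16 in knockout livers, which 49.5% did. The difference of knockout from wild type was -0.62 on control diet, or 1.53-fold, a size that 1.52% of genes reached. On high-fat diet the genotypes differed by 0.05, and this sign turned to -0.04 after cyclic loess.

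Plin2 (probe set 17426981) encodes the main perilipin of the liver, whose protein is stabilised by stored lipid. Its log2 value was 9.82 in wild-type livers and 9.53 in knockout livers on control diet, and 9.21 in wild-type livers and 9.35 in knockout livers on the high-fat diet. Both control arrays were higher than both high-fat arrays, so the diets did not overlap for this gene. The same held for Plin5 and Pnpla2, which makes 3 of the 8 tested genes, where 21.2% of all genes were lower in both high-fat arrays than in both control arrays. The diet difference was -0.60 in wild-type livers (1.52-fold lower), which 3.85% of genes reached, and -0.18 in knockout livers, which 44.9% reached. The genotype difference was -0.29 on control diet and 0.14 on the high-fat diet.

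Of the 8 tested genes, 3 were 1.5-fold or more lower with fat feeding in wild-type livers (Plin5, Pparg and Plin2), against 2.52% of all genes in that direction. In knockout livers 0 of 8 reached 1.5-fold, against 4.01% of all genes in either direction. Between the genotypes 1 of 8 reached it on control diet, Plin5, where 0.864% of genes were that much lower, and 0 of 8 on the high-fat diet, against 3.1% of all genes. The diet comparison in wild-type livers and the genotype comparison on control diet both subtract the same wild-type control array, so Plin5 was not found low in them independently.

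Plin2 and Plin5 had the same order of the 4 arrays (wild-type control, knockout control, knockout high-fat, wild-type high-fat), which 5.72% of all genes had, and their promoters are shown for that reason, with that of Plin4, which lies beside Plin5 in the genome and had another order. The windows are the 250 bases upstream of the annotated start, outside the transcript, from RefSeq on GRCm38.p6, which is the build of this table and not one named for the arrays. Plin2 is at chr4:86670060-86670309, Plin5 (the more upstream of its 2 annotated starts) at chr17:56117549-56117798 and Plin4 at chr17:56109783-56110032, all on the minus strand and printed 5′ to 3′. Capitals mark the element AGGTCA on either strand (TGACCT when it lies on the other), the core letters that PPARs and related nuclear receptors bind.
Plin2: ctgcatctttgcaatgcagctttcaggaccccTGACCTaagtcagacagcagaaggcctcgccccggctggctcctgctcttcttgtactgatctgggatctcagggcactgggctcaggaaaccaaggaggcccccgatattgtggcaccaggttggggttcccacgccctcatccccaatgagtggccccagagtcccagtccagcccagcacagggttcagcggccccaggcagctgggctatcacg
Plin5: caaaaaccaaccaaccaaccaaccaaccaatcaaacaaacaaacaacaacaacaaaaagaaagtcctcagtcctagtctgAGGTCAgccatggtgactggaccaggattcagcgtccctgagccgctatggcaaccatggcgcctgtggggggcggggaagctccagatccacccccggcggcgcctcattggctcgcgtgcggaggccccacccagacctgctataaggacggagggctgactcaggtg
Plin4: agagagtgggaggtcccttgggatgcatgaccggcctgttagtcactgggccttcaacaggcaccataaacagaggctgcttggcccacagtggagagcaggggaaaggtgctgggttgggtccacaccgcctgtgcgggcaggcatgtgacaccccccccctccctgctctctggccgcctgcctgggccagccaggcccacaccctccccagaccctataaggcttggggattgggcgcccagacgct

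In Plin2 the element began at base -218 from the start and in Plin5 at base -170. These letters were not in the Plin4 window, nor in the window of the other Plin5 start, which is not printed. In the RefSeq set, 4607 of 32851 windows of this length (14.0%) held the element, and 5 of the 13 windows of the droplet genes did. The 5 are those of Plin2, Hsd17b13, 1 of the 2 starts of Plin5 and 2 of the 3 starts of Pparg. The table held windows for 9 of the 10 genes, Cideb included. The direct repeat of AGGNCA spaced by 1 base, which PPAR dimers bind and which can overlap the single element, was in 0 of the 13 windows and in 0.338% of all. The E-box CACGTG (6.02% of all windows), the sterol element TCACNCCAC (1.05%) and the C/EBP element TTGCNNNAA (8.29%), each sought on both strands, were in none of the 13 windows. A match is a description of letters and not a measured binding site. The Pparg probe set does not separate the 3 starts.

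Cidec (probe set 17469754), which encodes the CIDE protein that gives adipocytes their single large droplet, had values near the filter. Its log2 value was 4.31 in wild-type livers and 3.95 in knockout livers on control diet, and 4.19 in wild-type livers and 3.89 in knockout livers on the high-fat diet. Both knockout arrays were lower than both wild-type arrays, as they also were for Plin4, so this held for 2 of the 8 tested genes and for 14.1% of all genes. Cidec had genotype differences of -0.35 and -0.30 on control and high-fat diet, sizes that 9.24% and 20.5% of genes reached. The diet differences were -0.11 in wild-type livers and -0.07 in knockout livers.

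Cidea (probe set 17351457), the CIDE gene of brown fat, had values of 3.46 and 3.27 in wild-type and knockout livers on the control diet, and of 3.35 and 3.75 on the high-fat diet. The knockout high-fat array was the highest. The diet difference was 0.47 in knockout livers and -0.11 in wild-type livers. The gene lay below the filter and entered no count.

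Plin4 (probe set 17346125) encodes a perilipin that is abundant in adipocytes. It had values of 4.25 in wild-type livers and 3.93 in knockout livers on control diet, and of 4.11 and 4.08 on the high-fat diet. The difference of knockout from wild type was -0.33 on control diet, which 11.0% of genes reached, and -0.03 on the high-fat diet. The array platform gives no background calls here, so signal over background is unknown for these dim genes.

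Pnpla2 (probe set 17484909), the lipase gene, had log2 values of 7.29 in wild-type livers and 7.26 in knockout livers under control feeding, and of 7.13 in wild-type livers and 6.93 in knockout livers on the high-fat diet. Both high-fat arrays were lower than both control arrays, with diet differences of -0.17 in wild-type livers and -0.34 in knockout livers. It was the one tested droplet gene whose diet difference was more negative in knockout livers than in wild-type livers, by -0.17. After centring of the arrays Cidec joined it, as its value in this measure turned from 0.05 to -0.01.

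G0s2 (probe set 17231248), the inhibitor gene, had values of 7.57, 7.52, 7.56 and 7.66 in wild-type and knockout livers on control diet and in wild-type and knockout livers on the high-fat diet. These 4 values span 0.13, the smallest range of the 9 genes. A second, dimmer probe set of G0s2 (17220941) had values of 4.00, 3.78, 3.82 and 4.25 in the same order and differed with diet by -0.18 in wild-type livers and 0.47 in knockout livers, so the probe sets of this gene disagree in size.

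Hsd17b13 (probe set 17450354) encodes a hepatocyte enzyme on droplets that is linked to fatty liver disease. Its values were 11.69 and 11.55 in wild-type and knockout livers on control diet and 11.53 and 11.68 on the high-fat diet. Its high values lay in the same groups as for Pparg, but the whole range was 0.16, and 46.1% of genes differed at least as much between the diets in wild-type livers.

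**Figure D2:**
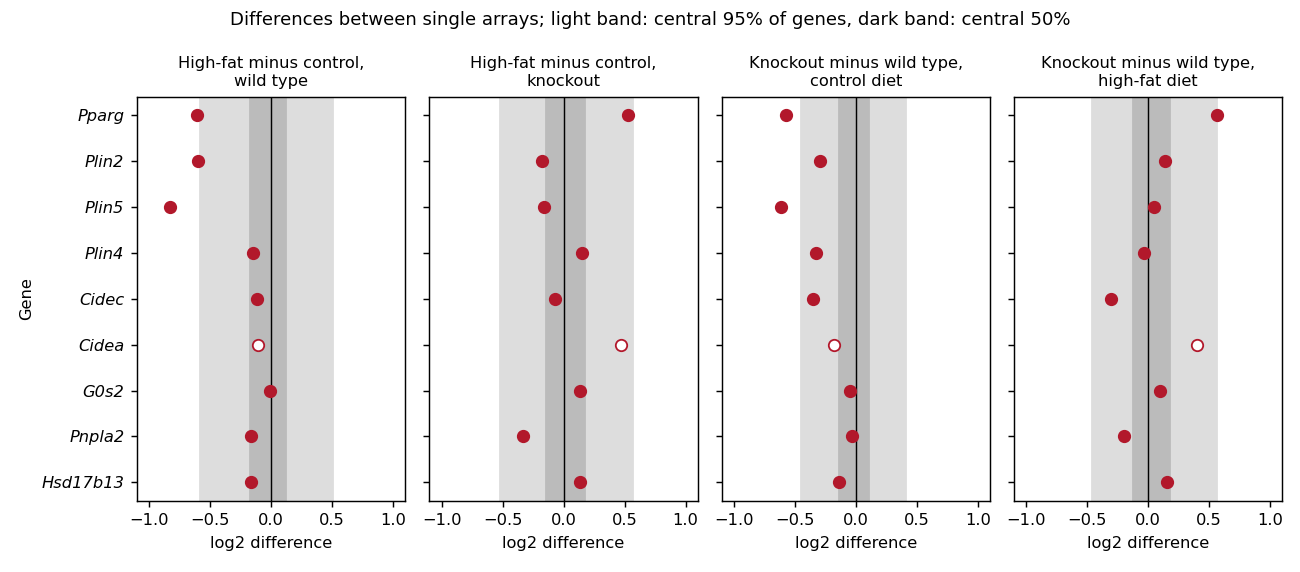
Log2 difference between single arrays (horizontal axis) for each of the 9 genes (vertical axis) in the 4 comparisons; the light band holds the central 95% and the dark band the central 50% of 13308 genes, and the open point is Cidea, which lay below the filter. Plin5, Pparg and Plin2 are left of the light band for diet in wild-type livers, Plin5 and Pparg for genotype on control diet, and Pparg is right of it for genotype on the high-fat diet.

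Read as a set, the droplet genes were low beside the wild-type control array. On high-fat diet 8 of the 8 tested genes were below it in wild-type livers, where 55.0% of all genes were, with a median difference of -0.16 against -0.03 over all genes; after cyclic loess or centring of the arrays it was 7 of 8, because G0s2 turned to 0.04. In knockout livers on control diet 8 of 8 were below it, where 53.3% of all genes were, with a median of -0.31 against -0.02; under the same 2 scalings it was 7 of 8, because Pnpla2 turned to 0.01. The wild-type control array was the highest of the 4 for 7 of the 8, and for 28.1% of all genes. Both counts share that array, so they describe it and were not tested. In the comparisons that do not use it, 4 of 8 were lower with high-fat diet in knockout livers (47.7% of all genes; median 0.03) and 3 of 8 were lower in knockout livers on the high-fat diet (45.9% of all genes; median 0.07), which was 4 of 8 after cyclic loess.

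The diet differences of wild-type and knockout livers come from separate arrays. They had opposite signs for 4 of the 8 genes (Pparg, Plin4, G0s2 and Hsd17b13) and for 44.9% of all genes. With at least 1.25-fold in both genotypes this held for Pparg alone among the 8, and for 1.46% of all genes.

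**Figure D3:**
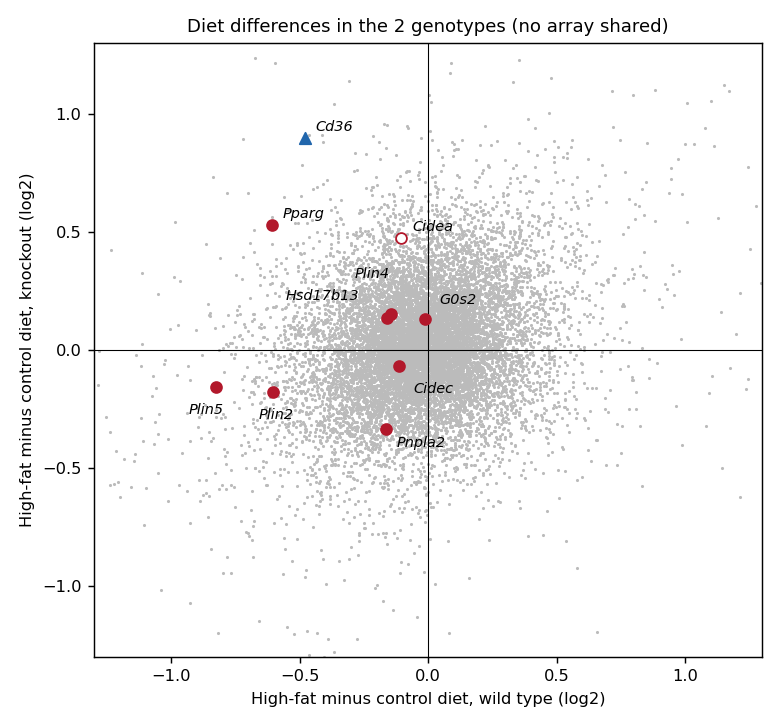
Diet difference in knockout livers (vertical axis, log2) against diet difference in wild-type livers (horizontal axis, log2); grey points are genes passing the filter (those beyond the axes are not drawn), red points the 9 droplet genes (Cidea open), and the blue triangle Cd36, a PPARgamma target. Pparg (-0.61 and 0.53) and Cd36 (-0.48 and 0.90) lie at the upper left, while Plin5 and Plin2 lie far left and just below 0.

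Limma's additive fit of diet and genotype over the 4 arrays gave the tests that the design allows. Its error term is the difference between the diet differences (1 residual degree of freedom), moderated by a prior that all genes share. Of 13308 genes 0 passed an adjusted p of 0.05 for diet (0.0%) or for genotype (0.0%), and so 0 of the 8 droplet genes did; 1238 and 567 genes had an unadjusted p under 0.05. For diet over both genotypes Plin5 had a log2 effect of -0.49 (SE 0.19, adjusted p 0.512) and Plin2 of -0.39 (SE 0.15, adjusted p 0.520). These 2 of the 8 had an unadjusted p under 0.05 for diet, where 9.3% of all genes did. For genotype over both diets 1 of the 8 did, Cidec, with -0.33 (SE 0.12, adjusted p 0.975), where 4.26% of all genes did. Pnpla2 had a diet effect of -0.25 (SE 0.13, adjusted p 0.609). Pparg had effects of -0.04 for diet and -0.0049 for genotype with an SE of 0.27, since its opposite differences enter this fit as error. These p-values set an effect against the difference between the diet differences and the shared prior. They do not measure spread between replicate arrays or between mice, and a p that misses the threshold does not show that groups are alike.

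Partners of PPARgamma and its known targets were read from lists of textbook members. Among PPAR receptors, partners and coregulators 0 of 13 tested genes passed limma for diet or genotype over all genes. With fat feeding 8 of 13 were lower in each genotype, where 55.0% of all genes were in wild-type livers and 47.7% in knockout livers. The list medians were -0.09 in wild-type livers and -0.04 in knockout livers. Ppard, the gene of the widely expressed PPARdelta, had values of 4.55 in wild-type livers and 5.00 in knockout livers on control diet, and of 5.06 and 4.49 on the high-fat diet. Its high and low groups were the reverse of those of Pparg, with diet differences of 0.51 in wild-type livers and -0.51 in knockout livers. Ppargc1a, a coactivator gene of mitochondrial and fasting programmes, had values of 6.38 and 5.95 on the control diet, and of 5.61 and 5.93 on the high-fat diet. Like Plin5 it was highest in wild-type livers on control diet, with a diet difference of -0.77 in wild-type livers and -0.02 in knockout livers. The coactivator gene Ncoa1 differed with diet by -0.51 and 0.24, and the corepressor gene Nrip1 by -0.49 and -0.23.

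Among PPARgamma targets 7 of 9 with a value passed the filter, and limma called 0 of the 7. Cd36, the gene of a fatty acid uptake receptor, had values of 8.44 in wild-type livers and 7.78 in knockout livers on control diet, and of 7.96 and 8.68 on the high-fat diet. Its high groups were those of Pparg, with diet differences of -0.48 and 0.90, genotype differences of -0.66 and 0.72, and a difference between the diet differences of 1.38 that 0.428% of genes reached. Fabp4, a fatty acid binding protein gene of adipocytes, macrophages and endothelium, was higher with fat feeding in each genotype, by 0.33 and 0.77. Lpl, the lipoprotein lipase gene, differed by -0.30 and 0.14, and Pck1, which encodes the gluconeogenic enzyme PEPCK, by -0.33 and -0.28. Of the 7, 6 were lower with fat feeding in wild-type livers and 2 in knockout livers, where 55.0% and 47.7% of all genes were. Mogat1, a triglyceride synthesis gene and a PPARgamma target of fatty liver, lay below the filter with a value between 3.37 and 3.41 on each array; it is named outside the rule for named genes.

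Genes of other proteins of the droplet and its formation had diet medians near those of all genes. Over 19 tested genes the list medians were -0.06 and -0.01 for diet in wild-type livers and knockout. Where 55.0% and 47.7% of all genes were lower, 12 and 10 of the 19 were. In knockout livers on control diet 13 of 19 were lower than in wild type, where 53.3% of all genes were. The list median there was -0.07 against -0.02 over all genes. Limma called 0 of the 19. For diet 5 of 19 had an unadjusted p under 0.05, of which 3 were lower, where 9.3% of all genes had one. Fitm1, which encodes a protein of droplet formation at the endoplasmic reticulum, was higher on the high-fat diet by 0.49 in wild-type livers and 0.88 in knockout livers (limma effect 0.69, SE 0.15, adjusted p 0.307). Sqle, a sterol synthesis enzyme found on droplets, differed with diet by -0.77 and -0.95 and was higher in knockout livers by 0.98 and 0.80 on the control and high-fat diets. Vps13a, a lipid transfer protein gene, differed with diet by 0.13 and 0.68, and Cav1, the caveolin gene, by 0.67 and 0.17. The remaining perilipins and the lipase coactivator, named outside the rule, were Plin1, between 3.33 and 3.66 on the 4 arrays, Plin3, which differed with diet by -0.35 and -0.36, and Abhd5, which differed by -0.05 and 0.04.

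Among 17 other lipases and esterases 13 were lower with fat feeding in wild-type livers and 5 in knockout livers, where 55.0% and 47.7% of all genes were. The list medians were -0.15 and 0.10, and limma called 0 of the 17. In knockout livers on control diet 12 of 17 were lower than in wild type, where 53.3% of all genes were, with a median of -0.19. This count and the wild-type diet count share the wild-type control array. Ces1d and Ces1f, carboxylesterases that act on stored triglyceride, differed in knockout livers from wild type on control diet by -0.50 and -0.48, and on the high-fat diet they differed by 0.10 and 0.24. Lipe, the hormone-sensitive lipase gene, differed with diet by 0.45 in wild-type livers and 0.21 in knockout livers, and Abhd6, a monoacylglycerol hydrolase gene, by -0.17 and 0.43.

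Of the genes of triglyceride assembly and secretion 10 of 13 were lower with fat feeding in wild-type livers, where 55.0% of all genes were. In knockout livers 8 of 13 were, where 47.7% of all genes were. The list medians were -0.04 and -0.01, and limma called 0 of the 13. Tm6sf2, which encodes a protein needed for loading triglyceride into secreted lipoproteins, was the one gene of all 5 pathway lists to reach 2-fold in any of the 4 comparisons of diet or genotype. Its values were 8.10 and 7.60 on control diet in wild-type livers and knockout, and 7.04 and 7.29 on the high-fat diet. The wild-type control array was the highest, as for Plin5, with a diet difference of -1.06 in wild-type livers and -0.31 in knockout livers (limma effect -0.68, SE 0.20, adjusted p 0.417). The lipin genes Lpin1 and Lpin2 differed with diet by -0.30 and -0.29 in wild-type livers and by 0.06 and 0.19 in knockout livers, and Gpat4, an acyltransferase gene, by 0.03 and 0.31.

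**Figure D4:**
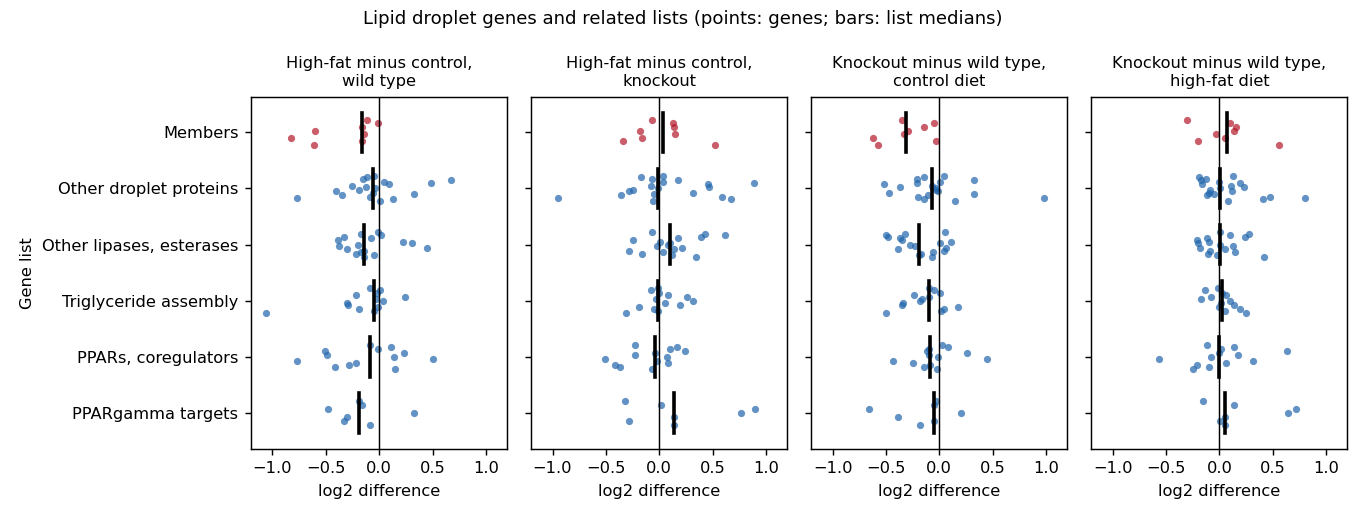
Log2 difference (horizontal axis) of each tested gene (points) of the droplet set and of the 5 related lists (vertical axis), with list medians as black bars, in the 4 comparisons. The medians of the droplet set are -0.16, 0.03, -0.31 and 0.07 from left to right, and the wider lists stay closer to 0 for genotype on control diet.

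Markers of other tissues differed between the same arrays. Exocrine pancreas transcripts had a summed linear level of 684 in wild-type livers and 3522 in knockout livers on control diet, and of 3171 and 7332 on the high-fat diet, and 13 of 13 tested markers were higher than in the wild-type control array in both comparisons against it. The wild-type control array thus had the lowest pancreas level and the highest Plin5 and Plin2, and the part of pancreas RNA in these results was not tested. Skeletal muscle markers summed to 312 in wild-type livers on the high-fat diet and to between 140 and 159 in the other 3 groups. The wild-type diet differences and the genotype differences on the high-fat diet use that array. The part of muscle RNA in these results was not tested. The hepatocyte list summed to 0.990, 0.977 and 0.991 times the wild-type control level on the knockout control, wild-type high-fat and knockout high-fat arrays. Alb lay between 13.64 and 13.70. This sum is set by the brightest genes, and scaling by quantiles draws the brightest values of the arrays together, so it says little of the hepatocyte share. With fat feeding 9 of 11 hepatocyte markers were lower in wild-type livers and 7 in knockout livers, where 55.0% and 47.7% of all genes were. Of the white adipose list 7 of 11 genes with a value passed the filter. With fat feeding 4 of the 7 were higher in wild-type livers and 4 in knockout livers, of which 3 were shared (Fabp4, Lipe and Car3). In each genotype 3 of the 7 were lower, where 55.0% and 47.7% of all genes were. The list medians were 0.32 in wild-type livers and 0.02 in knockout livers. Limma called 0 of the 7 for diet, and 4 had an unadjusted p under 0.05, of which 1 was lower, where 9.3% of all genes had one. Car3, a carbonic anhydrase gene, differed with diet by 0.36 and 0.67. The list summed to 10645 and 9851 on control diet and to 11301 and 12093 on the high-fat diet in wild-type and knockout livers, and its part in these results was not tested. In the same list Adipoq (3.12 to 3.31), Lep (3.13 to 3.24), Adig (3.13 to 3.29) and Acvr1c (3.17 to 3.26) were below the filter on all arrays. Plin1 (3.33 to 3.66) and Retn (3.65 to 3.87) passed it. Plin1 differed with diet by 0.32 in wild-type livers and -0.05 in knockout livers, and Retn by -0.06 and -0.19. Of the brown adipose list Ucp1 lay between 3.31 and 3.55. The sum of the brown list is set by Elovl3 and that of the white list by Car3 and Pck1, which liver also expresses. In wild-type livers and knockout, Kupffer cell and macrophage markers summed to 3019 and 2985 on control diet and to 2553 and 2580 on the high-fat diet. Of the 16 markers 13 and 12 were lower on the high-fat diet, where 55.0% and 47.7% of all genes were. In bulk tissue fewer cells of a type and less RNA per cell cannot be told apart. Myd88 itself (probe set 17532137) differed in knockout livers from wild type by -0.19 and -0.21 on the control and high-fat diets; no check of the deletion can be drawn from it, since the place of its probes in the gene was not used here.

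**Figure D5:**
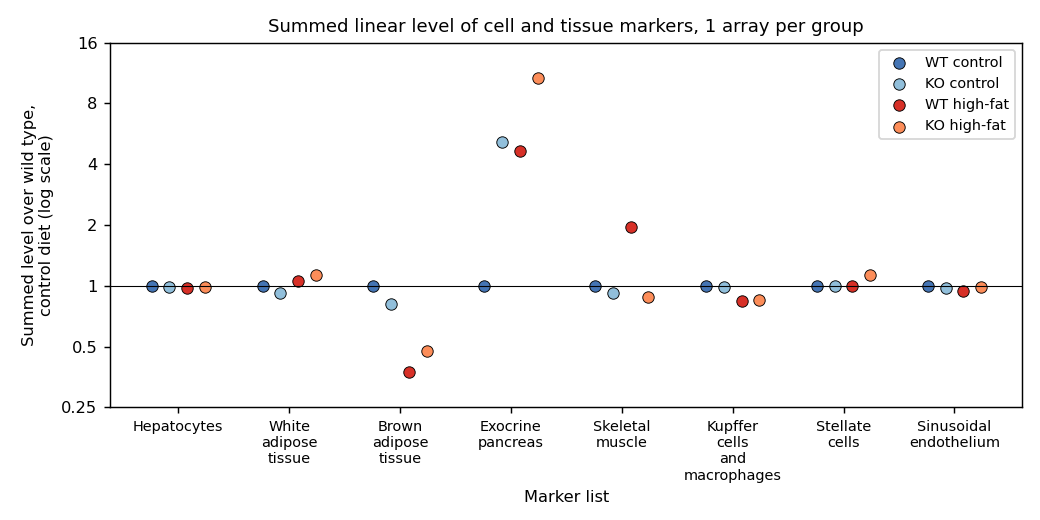
Summed linear level of each marker list (horizontal axis) divided by that of the wild-type control array (vertical axis, log scale), with 1 point per array. Pancreas markers reach 10.7 times the wild-type control level in knockout livers on the high-fat diet, muscle markers 1.97 times in wild-type livers on the high-fat diet, and hepatocyte markers stay at 0.977 times or above.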

How the data were processed

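The authors deposited 1 log2 value for each probe set and array. The submitters' processing notes name RMA (robust multi-array average) and Affymetrix Expression Console, with no version. RMA normalises by quantiles and compresses differences of dim probe sets. RNA was labelled from 100 ng per pool per the labels' protocols. No scanner files were used. Array medians lay between 3.53 and 3.56, and the arrays correlated over all probe sets with Pearson r of 0.985 to 0.990; the number of arrays limits the precision.

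Of 41345 probe sets 23521 had 1 symbol in the platform annotation, 1814 had several and 16010 none; probe sets of the latter kinds were not named, which left out Cideb. Symbols were matched to the RefSeq gene table by Entrez identifier (23328 found, 0 changed). Each gene took its brightest probe set by mean over the arrays, and genes below the 40th percentile of means were left out. Differences are subtractions of log2 values. Diet and genotype effects come from limma 3.58.1 under R 4.3.3 (additive model, eBayes, Benjamini-Hochberg over all 13308 genes at 0.05). The fit was also run on simulated data with additive diet changes and no diet changes that depend on genotype. That run does not cover genes such as Pparg. "Percent of genes" beside a difference is the share of tested genes at least as different in either direction. Python 3.11.15, pandas 2.3.3, NumPy 2.4.6 and matplotlib 3.10.9 were used.

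The genes described and the lists were chosen with earlier results of these data known. Named were all droplet genes, from each pathway list those with 2-fold or more in any comparison and the 4 with the largest difference, and Myd88. Other names from the pathway lists are marked. Names from the cell and tissue marker lists were not all picked by size of difference and are not marked. Genes were also to be named by likeness to a droplet gene with a range of 1 log2 or more, and 0 had one. Alternatives were cyclic loess, centring on array medians, the mean of a symbol's probe sets, no filter or the 60th percentile, a trended prior and a 1.5-fold call.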

Additional observations from a re-analysis of the deposited data

Results flagged for a closer look

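The diet difference of Pparg had opposite signs in the 2 genotypes, -0.61 in wild type and 0.53 in knockout, and both were at least 1.25-fold, a size set after the data were seen. The difference between them was 1.13 log2. With 1 array per group this difference was not tested, and 1.46% of all genes met the same criterion. Pancreas markers were lowest in the wild-type control array and highest in the knockout high-fat array, the 2 arrays in which Pparg was high. The part of pancreas RNA in the Pparg difference was not tested.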

How the results depend on the processing

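Over 45 differences of the 9 genes there were 130 alternative values. Of these, 129 moved by less than the residual spread of the additive fit for a difference of 2 arrays. The other was G0s2 with the mean of its 2 probe sets, whose difference between diet differences moved from 0.15 to 0.40. The remaining genes had 1 probe set each, so the mean of probe sets could not move them and they count as unmoved by construction. The spread holds each gene's own difference between diet differences, so it was widest for Pparg. No difference of at least 0.15 log2 changed sign under loess, centring or the mean of probe sets, while 6 alternative values of smaller differences did, of G0s2, Pnpla2, Plin5 and Cidec. Loess moved the median of all genes by at most 0.04. At 1.5-fold in place of 2-fold, the droplet genes counted were 3 for diet in wild type, 1 for genotype on control diet and 2 for the difference between diet differences, in place of 0, 0 and 1. The genes counted were 560 and 533 for diet (wild-type and knockout livers), 235 and 413 for genotype (control and high-fat diet) and 1096 for the difference between diet differences, in place of 140, 81, 67, 52 and 162; a lower fold counts more genes by construction. The 60th percentile filter kept 6 of the droplet genes. After cyclic loess limma called 71 genes for diet and 3 for genotype in place of 0 and 0, none of them a droplet gene, and the cause was not tested; with no filter, a trended prior or the mean of probe sets it called 0. Over these fits the adjusted p for diet ranged from 0.271 to 0.597 for Plin5 and from 0.308 to 0.586 for Plin2. No paired analysis was possible because each group has 1 array. No array was left out, since the additive fit on 3 arrays has no residual degree of freedom. Without background calls, signal over background limits what can be said of Cidea, Cidec and Plin4. Pparg, at 4.46 to 5.07, was the next dimmest of the droplet genes, and the same limit holds for it.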
